A study of Homo sapiens with 16 samples.

Results

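Cytosolic ribosomal protein genes encode the protein components of the ribosome that translates nuclear-encoded mRNA. They were chosen by name, as symbols of the RPS and RPL series with their A and X forms, the stalk genes RPLP0, RPLP1 and RPLP2, and RPSA. The rule found 77 members among 59609 gene names, 31 of the small 40S subunit and 46 of the large 60S subunit with its stalk, and used no measured value. The cells carried the label Huh7, the name of an established human hepatocellular carcinoma line. Poly(A) RNA was sequenced from 3 samples given sorafenib and 3 given the solvent DMSO, and from 3 samples overexpressing MT1G (MT1G-OE) and 3 with an empty vector (Vec). ATAC-seq, which marks open chromatin by transposase insertion, covered 2 samples with sorafenib and 2 with DMSO. Sorafenib is a kinase inhibitor used in liver cancer, and MT1G is a metallothionein, a small protein that binds zinc and copper. Dose, duration, vector promoter and clone number are not given in the sources used here.

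A ribosome needs its proteins in nearly equal numbers, and their genes are among the most actively transcribed of a growing cell. Most of the mRNAs begin with a C followed by an uninterrupted run of C and T, the 5′ terminal oligopyrimidine (TOP) motif, through which LARP1 and the kinase complex mTORC1 tie their translation and stability to growth signals. Ribosomal proteins that are not built into ribosomes, RPL5 and RPL11 above all, can bind the ubiquitin ligase MDM2. Several members have paralogs, such as RPL22L1 for RPL22, whose products can take the place of the main protein.

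The start of the transcript carries the motif, so windows at annotated starts are shown for members with the largest and the smallest changes, for a stalk pair, for RPSA and RPS6, and for TOP genes that are not ribosomal proteins. They come from RefSeq (GRCh38.p14), where 62 of the 77 members matched by symbol. The members without an entry included RPL5, RPL37, RPS20, RPL7, RPL30, RPL8, RPS2, RPS15A, RPL23A and RPL23. Each window of 30 bases holds 10 bases before the start and 20 from it, in the direction of transcription, and capitals mark a run of C and T that begins with a C at the start and goes on for at least 4 more bases. RPL39, RPL38, RPL22 and RPL34 were among the members with the largest falls under sorafenib:
RPL39 (chrX:119791611-119791640, minus strand): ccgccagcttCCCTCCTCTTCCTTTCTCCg
RPL38 (chr17:74203668-74203697, plus strand): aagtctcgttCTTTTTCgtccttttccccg
RPL22 (chr1:6199576-6199605, minus strand): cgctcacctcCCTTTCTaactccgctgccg
RPL34 (chr4:108620566-108620595, plus strand): cttttttcttCCTCTTCCggggacgttgtc
RPS29 had the largest fall, and its annotated start shows no such run:
RPS29 (chr14:49598691-49598720, minus strand): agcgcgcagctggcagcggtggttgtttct
RPL36 and RPL10A had the smallest falls past the threshold. RPL36 has the run at its annotated start. RPL10A has none at that base, but a stretch of C and T that begins with a C lies a few bases after it:
RPL36 (chr19:5690285-5690314, plus strand): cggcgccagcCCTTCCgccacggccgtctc
RPL10A (chr6:35468391-35468420, plus strand): aagacatgctagtctcttttccggttagcg
The stalk genes, RPSA and RPS6 each carry a run:
RPLP0 (chr12:120201092-120201121, minus strand): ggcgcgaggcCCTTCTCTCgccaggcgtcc
RPLP2 (chr11:809957-809986, plus strand): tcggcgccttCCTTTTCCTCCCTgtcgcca
RPSA (chr3:39406710-39406739, plus strand): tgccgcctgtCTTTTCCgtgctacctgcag
RPS6 (chr9:19380217-19380246, minus strand): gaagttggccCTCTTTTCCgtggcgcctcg
EEF1A1, an elongation factor, EIF4B, an initiation factor, and the paralog RPL22L1 also carry it:
EEF1A1 (chr6:73521013-73521042, minus strand): cgtgaacgttCTTTTTCgcaacgggtttgc
EIF4B (chr12:53006446-53006475, plus strand): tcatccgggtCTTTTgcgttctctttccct
RPL22L1 (chr3:170870176-170870205, minus strand): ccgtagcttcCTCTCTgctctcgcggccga

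The run of C and T at a start was found in 46 of the 62 members with an annotated start (74.2%), against 6.86% of 10314 other tested genes. Only a run that begins at the annotated base itself was counted, so a run a few bases away was missed. Other letters were searched on both strands over 250 bases before and 50 after each start. The GC box GGGCGG, bound by SP1 family factors, was present for 58.1% of members and 76.8% of other genes. The ETS core CCGGAAG stood in 35.5% of member promoters and 22.0% of the others, and the YY1 core AANATGGCG in 12.9% and 7.98%. The E box CACGTG, the site of MYC with MAX, was there for 6.45% of members and 12.6% of other genes, and TATAAA for 8.06% and 8.62%. A gene with several starts counted if any of them held the letters. These matches describe the letters only, and no motif here contains another.

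The 12 RNA libraries held 16549330 to 26781600 reads in genes. MT1G had 140, 130 and 179 normalized read counts in the MT1G-OE libraries and was at 0 in the 3 Vec libraries. It also had 189, 158 and 194 normalized read counts in the sorafenib libraries and was at 0 in the 3 DMSO libraries. Of 14 markers of hepatocytes and hepatoma cells, HNF4A, FOXA1, KRT8 and KRT18 reached a mean of 10 normalized read counts in both comparisons, while ALB, APOB and FOXA2 were at 0 in all 12 libraries. The sum of 7 stellate cell or fibroblast markers was 1039 to 1079 in sorafenib libraries and 2338 to 2591 in DMSO libraries, and 2644 to 3475 in MT1G-OE libraries and 2159 to 2206 in Vec libraries. COL1A1, COL3A1, DCN, LUM and PDGFRB of that list reached a mean of 10. Sums of endothelial markers were 36.3 to 57.1 in sorafenib libraries and 69.4 to 79.7 in DMSO libraries, and 39.5 to 48.7 in MT1G-OE libraries and 46.5 to 75.7 in Vec libraries. Leukocyte markers summed to at most 18.2 and erythroid markers to at most 7.71 in any library, with CD3E and LST1 at 0 throughout. The part of these marker levels in the results on ribosomal protein genes was not tested. Single libraries stood apart in each comparison. DMSO replicate 3 lay above the mean of the DMSO group for 69 of 70 well-counted members, and MT1G-OE replicate 3 differed from the other MT1G-OE libraries for several members, among them RPS23 with 6548 normalized read counts against 12358 and 12491. Results are therefore also given without them.

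Ribosomal protein genes took a smaller share of all reads with sorafenib, and also with MT1G overexpression. The 77 genes held 6.96%, 6.68% and 6.53% of reads in sorafenib libraries, against 7.61%, 7.75% and 8.55% in DMSO libraries. All sorafenib libraries lay below all DMSO libraries, at 6.72% ± 0.22 and 7.97% ± 0.51 (SD, n = 3 each; exact permutation test, two-sided p = 0.1, the smallest that 3 against 3 allows). Without DMSO replicate 3 the difference, sorafenib minus DMSO, was -0.96 percentage points in place of -1.25. In the other experiment the shares were 7.60%, 7.32% and 7.69% in MT1G-OE libraries, against 8.06%, 8.36% and 8.52% in Vec libraries. The groups again did not overlap, at 7.54% ± 0.19 and 8.31% ± 0.23 (SD, n = 3 each; exact permutation test, two-sided p = 0.1). Adjusted over the 13 quantities compared within libraries, these p-values were 0.13 for sorafenib and 0.325 for MT1G-OE by the same exact permutation test. The share does not depend on how libraries were scaled to each other. It does depend on the reads of all other genes, so it does not give the number of transcripts per cell. In bulk RNA a lower share could come from fewer transcripts per cell or from a changed make-up of cells, among others, and these cannot be told apart.

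**Figure D1:**
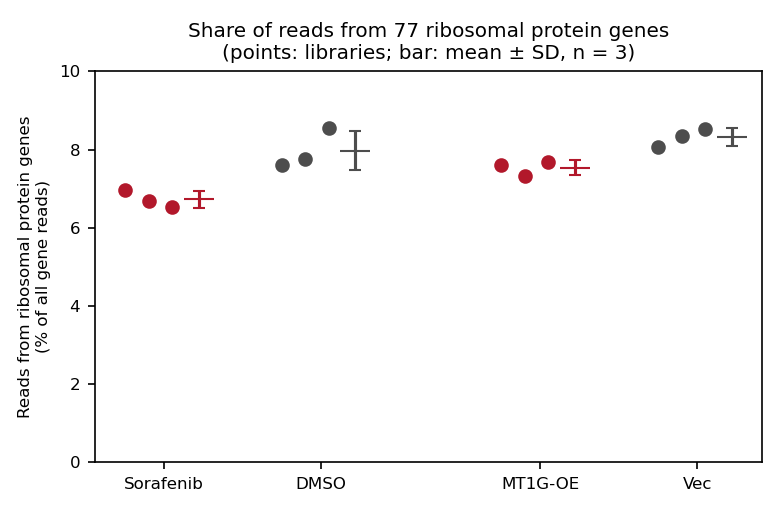
Share of all gene reads that came from the 77 ribosomal protein genes, in percent, for each library (points) with the mean ± SD of 3 libraries (bars). Sorafenib libraries lie at 6.53% to 6.96% and DMSO libraries at 7.61% to 8.55%, and MT1G-OE libraries at 7.32% to 7.69% and Vec libraries at 8.06% to 8.52%.

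The lower share under sorafenib did not come with a lower share of every kind of translation gene. Mitochondrial ribosomal protein genes, which build the separate ribosome inside mitochondria, held 0.532% ± 0.009 of reads in sorafenib libraries and 0.530% ± 0.017 in DMSO libraries (SD, n = 3 each; exact permutation test, two-sided p = 0.9). Genes encoded in the mitochondrial genome held 3.50% ± 0.13 of reads in sorafenib libraries and 4.88% ± 0.18 in DMSO libraries (SD, n = 3 each; exact permutation test, two-sided p = 0.1). The ratio of 40S to 60S reads was 0.557 ± 0.005 in sorafenib libraries and 0.552 ± 0.001 in DMSO libraries (exact permutation test, two-sided p = 0.2, n = 3 each). It was 0.561 ± 0.006 in MT1G-OE libraries and 0.565 ± 0.004 in Vec libraries (exact permutation test, two-sided p = 0.2, n = 3 each).

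With sorafenib nearly all ribosomal protein genes had lower levels, by a similar amount in both subunits. Of 75 members tested with limma, 72 were lower and 1 was higher at an adjusted p under 0.05, and 2 did not pass. Over all 14915 tested genes 35.8% were lower and 34.4% higher. The 40S genes had 27 of 29 tested members lower, with a median log2 change of -0.47, and the 60S genes 45 of 46, with a median of -0.47. The median log2 change of the members was -0.47, beside -0.021 over all tested genes. For 71 of the 75 members all sorafenib libraries lay below all DMSO libraries, and such a gap was found for 37.2% of all tested genes. RPL36 and RPL36A were among the 3 members whose groups overlapped. Without DMSO replicate 3, 71 members were lower and the median was -0.40. In the authors' deposited table, 71 members were lower and 1 was higher at an adjusted p under 0.05, with a median log2 change of -0.47.

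Among the 70 members with a mean of at least 1000 normalized read counts all were lower, with log2 changes between -0.95 and -0.16 and an SD of 0.15 between members. As folds, sorafenib over DMSO, these members lay between 0.517 and 0.898 with a median of 0.718. Scaling each library by its total of gene reads, in place of the deposited size factors, moved the median of all tested genes by 0.22 on the log2 scale. Under that scaling 61 members were lower and 1 was higher, while all tested genes split into 6817 higher and 3500 lower. The median of the members minus the median of all genes was -0.45 under the deposited scaling and -0.45 under scaling by library totals. Rescaling a library moves all of its genes nearly alike, so this difference was nearly fixed in advance. It does not test whether the fall depends on scaling.

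**Figure D2:**
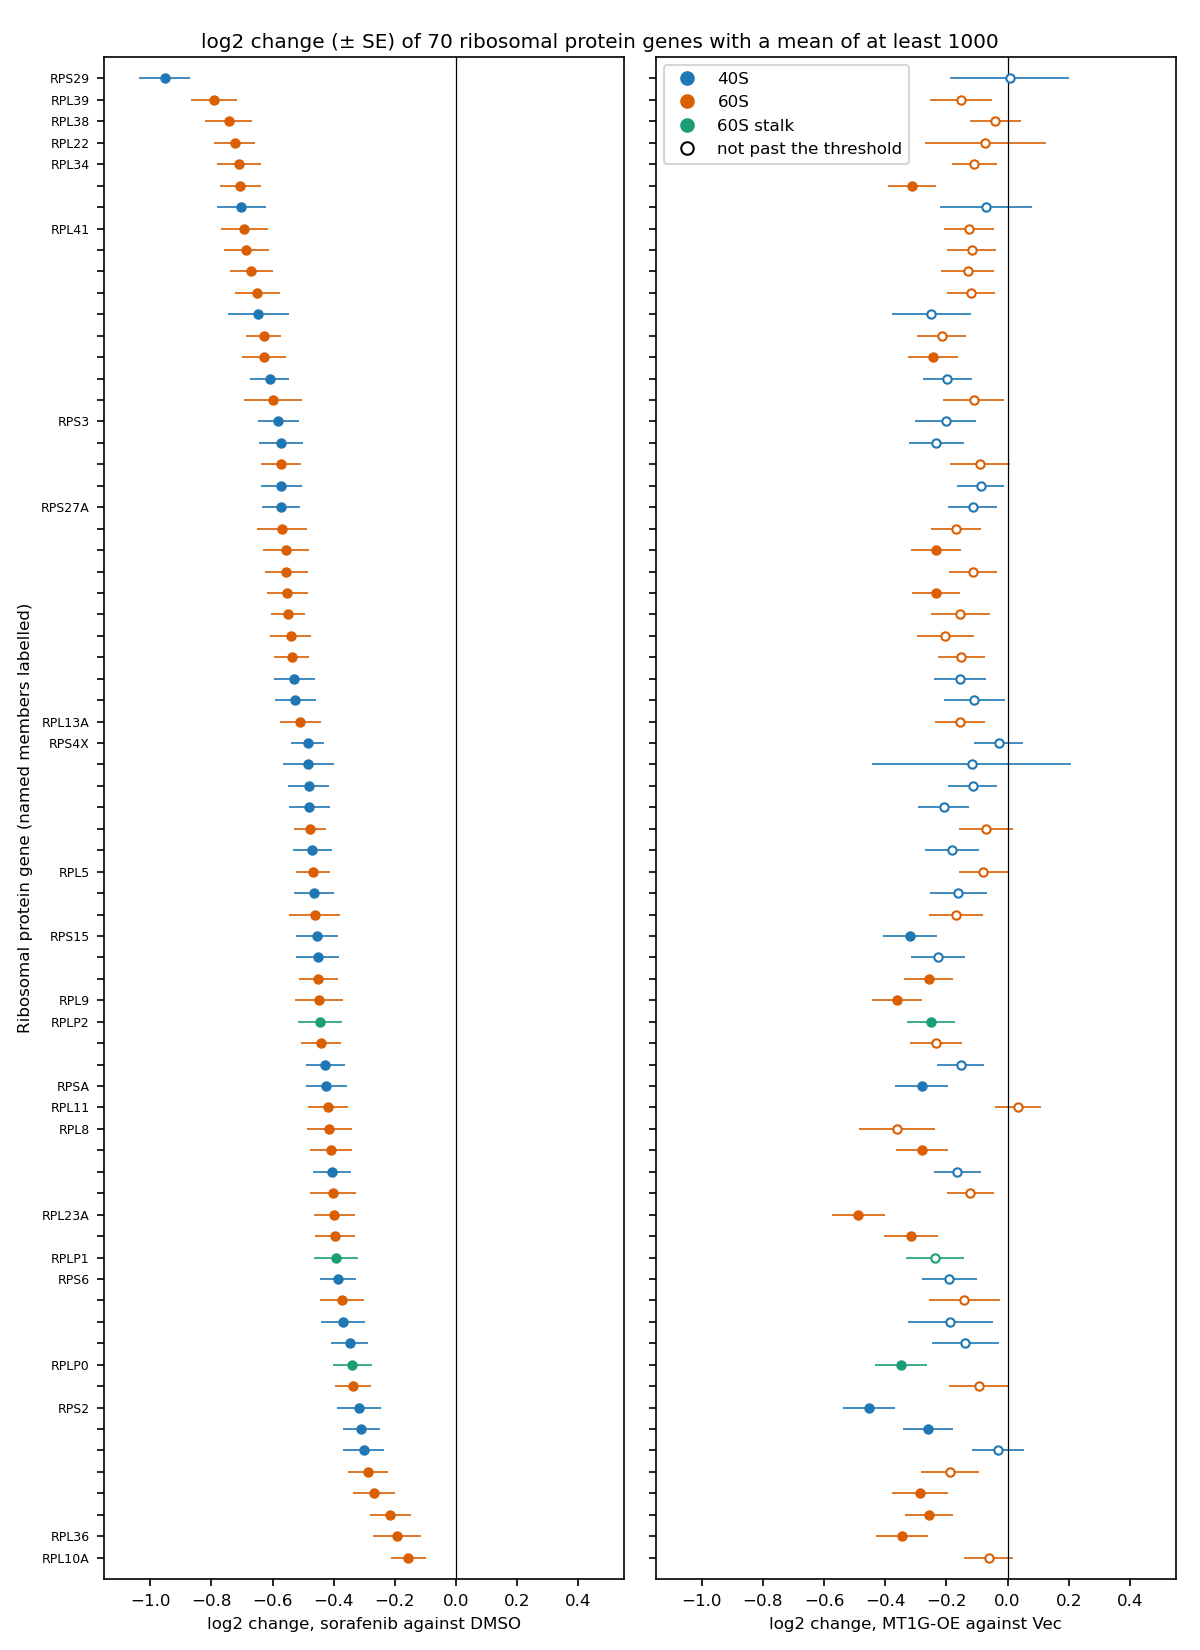
log2 change ± SE of each of the 70 ribosomal protein genes with a mean of at least 1000 (rows), for sorafenib against DMSO (left) and MT1G-OE against Vec (right), coloured by subunit, with open points for genes not past the adjusted p threshold. Rows follow the sorafenib change, and members chosen by the naming rule are labelled. Under sorafenib all points lie between -0.95 (RPS29) and -0.16 (RPL10A), and with MT1G-OE they lie between -0.49 (RPL23A) and 0.034 (RPL11).

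Level and change went together over the transcriptome under sorafenib, so the members are also set beside genes of similar level. The median log2 change fell across deciles of mean normalized read count, with 0.52 in the first decile and -0.32 in the tenth. The tenth held 68 members. The 1424 other genes of that decile had a median of -0.30, with 66.0% lower and 16.0% higher by limma at an adjusted p under 0.05. With MT1G-OE the first decile had a median of 0.066 and the tenth -0.13. There the 1323 other genes of the tenth decile had a median of -0.13, with 28.1% lower and 6.35% higher. The part of expression level in the members' changes was not tested.

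**Figure D3:**
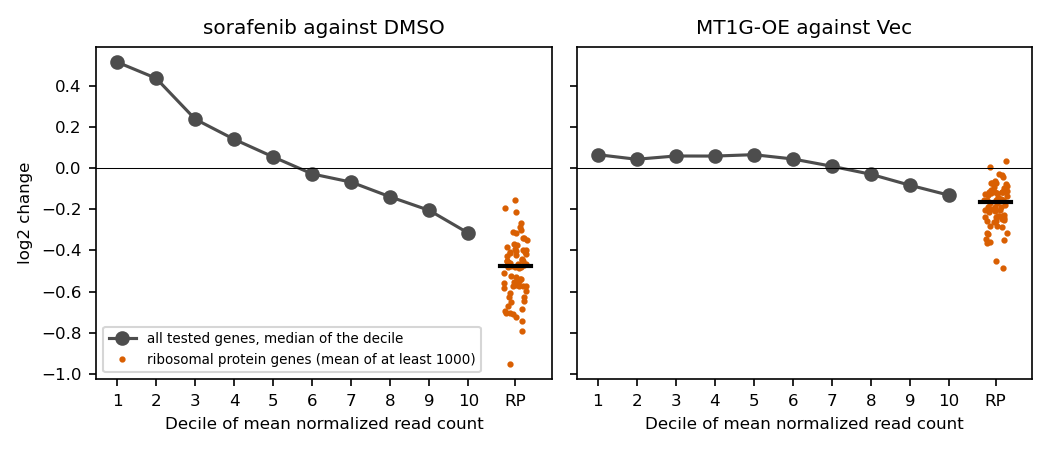
Median log2 change of all tested genes in each decile of mean normalized read count (grey line), and the log2 change of the 70 ribosomal protein genes with a mean of at least 1000 (points, RP; black bar, their median). Under sorafenib (left) the line falls to -0.32 in the tenth decile and the members centre on -0.48, and with MT1G-OE (right) the tenth decile is at -0.13 and the members centre on -0.17.

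The largest fall under sorafenib was that of RPS29, a small zinc-binding protein of the 40S head. It had 3739, 3518 and 2983 normalized read counts in sorafenib libraries, against 6183, 6237 and 7380 in DMSO libraries. Its level was lower in each sorafenib library than in any DMSO library, with a log2 change of -0.95 (SE 0.085; limma adjusted p = 9.58e-08). RPL39, one of the smallest ribosomal proteins and part of the exit tunnel wall, had 7760, 7399 and 6666 normalized read counts in sorafenib libraries, against 11663, 12054 and 14132 in DMSO libraries. It fell by 0.79 on the log2 scale (SE 0.075; limma adjusted p = 9.92e-08), again without overlap.

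RPL38, a 60S protein known from mouse work for its role in the translation of Hox mRNAs, had 3827, 3539 and 3205 normalized read counts in sorafenib libraries, against 5561, 5534 and 6607 in DMSO libraries. It fell by 0.74 on the log2 scale (SE 0.077; limma adjusted p = 2.94e-07). RPL34, a 60S protein, had 4455, 4468 and 4558 normalized read counts in sorafenib libraries, against 6677, 7093 and 8393 in DMSO libraries. The sorafenib libraries were close to each other and below all DMSO libraries, with a log2 change of -0.71 (SE 0.072). RPL26, a 60S protein, had a log2 change of -0.79 (SE 0.11), at 551, 515 and 384 normalized read counts in sorafenib libraries, against 833, 836 and 819 in DMSO libraries.

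The 3 members with the highest mean in the sorafenib comparison, RPS2, RPLP0 and RPL8, fell less than the members' median of -0.47. RPL13A, the next by mean, fell more. RPS2, of the 40S mRNA entry site, had 79702, 74078 and 73566 normalized read counts in sorafenib libraries, against 90031, 87321 and 106853 in DMSO libraries. The groups did not overlap and the log2 change was -0.32 (SE 0.072; limma adjusted p = 0.000914), but it did not pass with scaling by library totals (-0.092; adjusted p = 0.17) or with no filter on low values (adjusted p = 0.0536). RPL8, a 60S protein near the peptidyl transferase centre, had 52834, 50233 and 45420 normalized read counts in sorafenib libraries, against 64251, 60420 and 73418 in DMSO libraries. It fell by 0.41 on the log2 scale (SE 0.074; limma adjusted p = 0.000109). RPL13A, a 60S protein known for a further role in translational silencing, had 50230, 47141 and 44786 normalized read counts in sorafenib libraries, against 64049, 64132 and 74406 in DMSO libraries, and fell by 0.51 (SE 0.068).

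The stalk of the 60S subunit, where RPLP0 anchors RPLP1 and RPLP2 and recruits elongation factors, moved with the rest. RPLP0 had 54207, 52196 and 53686 normalized read counts in sorafenib libraries, against 64926, 63805 and 74290 in DMSO libraries, a log2 change of -0.34 (SE 0.063; limma adjusted p = 0.000162). RPLP1 fell by 0.39 (SE 0.073) and RPLP2 by 0.45 (SE 0.072) on the log2 scale. RPLP0 is often used as a reference gene in quantitative PCR, and all of its sorafenib libraries lay below all DMSO libraries.

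RPL5 and RPL11 form the 5S ribonucleoprotein particle that can bind MDM2. RPL5 had 16562, 16146 and 15548 normalized read counts in sorafenib libraries, against 21363, 22466 and 22902 in DMSO libraries, with a log2 change of -0.47 (SE 0.056; limma adjusted p = 1.50e-06). RPL11 had 9540, 9251 and 8094 normalized read counts in sorafenib libraries, against 11417, 12089 and 12338 in DMSO libraries, with a log2 change of -0.42 (SE 0.066; limma adjusted p = 3.00e-05). Both particle genes were lower without overlap of the groups.

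Among 40S proteins with known further roles, RPS6, the substrate of S6 kinase, fell by 0.38 on the log2 scale (SE 0.059; limma adjusted p = 2.31e-05). RPS3, at the mRNA entry channel, fell by 0.58 (SE 0.067). RPSA, also known as the laminin receptor, fell by 0.42 (SE 0.067), and RPS4X, an X-linked 40S protein, by 0.48 (SE 0.054). RPS27A, made as a fusion with ubiquitin, fell by 0.57 (SE 0.062), and RPL41, among the shortest of human proteins, by 0.69 (SE 0.076), all on the log2 scale. For each of these the 3 sorafenib libraries lay below the 3 DMSO libraries.

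The smallest changes past the threshold were those of RPL10A and RPL36. RPL10A, of the L1 stalk, had 14486, 14028 and 13746 normalized read counts in sorafenib libraries, against 14834, 15802 and 16466 in DMSO libraries. Its log2 change was -0.16 (SE 0.058; limma adjusted p = 0.0243), and 0.069 with scaling by library totals. RPL36, a 60S protein, had 8614, 8096 and 7682 normalized read counts in sorafenib libraries, against 8517, 8730 and 10751 in DMSO libraries. These groups overlapped, and the log2 change was -0.19 (SE 0.079; limma adjusted p = 0.0386), 0.032 with scaling by library totals and -0.086 without DMSO replicate 3. Neither gene passed with TMM factors (adjusted p = 0.0572 for RPL10A and 0.0746 for RPL36). By limma RPL10A also did not pass without sorafenib replicate 2, sorafenib replicate 3 or DMSO replicate 2 (adjusted p = 0.0876, 0.102 and 0.0521), and RPL36 not without sorafenib replicate 2, sorafenib replicate 3 or DMSO replicate 3 (adjusted p = 0.0965, 0.156 and 0.102).

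RPS10 was the member that was higher with sorafenib. It had 155, 128 and 101 normalized read counts in sorafenib libraries, against 47.2, 44.3 and 60.02 in DMSO libraries, a log2 change of 1.32 (SE 0.18; limma adjusted p = 8.92e-06). RPS10 belongs to 7 members that had under 1000 normalized read counts on average in a comparison, and RPL26, RPL17, RPL36A, RPS9 and RPS18 are also among them. Ribosomal protein genes have many near-identical pseudogene copies, and RPS10, RPL17 and RPL36A overlap read-through genes. Values of these members are uncertain where the authors' counting could have dropped or split their reads. The read-through genes RPS10-NUDT3 and RPL36A-HNRNPH2 were at 0 in all libraries, and RPL17-C18orf32 had at most 1 read in a comparison.

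RPS18 had at most 0.844 normalized read counts in any sorafenib or DMSO library and at most 1.99 in any MT1G-OE or Vec library. RPS9 had 8.44, 8.15 and 12.8 normalized read counts in sorafenib libraries, against 7.87, 8.68 and 6.55 in DMSO libraries. Without these members the count under sorafenib was 70 lower of 70, and none of the higher calls remained among the well-counted genes, since RPS10 was the only one. RPL36A had 88.6, 88.8 and 87.6 normalized read counts in sorafenib libraries, against 94.5, 76.2 and 72.0 in DMSO libraries, and did not pass (limma adjusted p = 0.454).

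Paralogs and fusion genes showed both directions under sorafenib. RPL22L1, the paralog of the 60S protein RPL22, had 791, 763 and 657 normalized read counts in sorafenib libraries, against 342, 393 and 414 in DMSO libraries. It rose by 0.94 on the log2 scale (SE 0.094; limma adjusted p = 1.82e-07). RPL22 itself had 1538, 1516 and 1322 normalized read counts in sorafenib libraries, against 2446, 2445 and 2320 in DMSO libraries, and fell by 0.72 (SE 0.068; limma adjusted p = 8.62e-08). RPL22 and RPL22L1 thus moved in opposite directions, and neither pair of groups overlapped.

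Within libraries RPL22L1 had 0.514, 0.503 and 0.497 reads for each RPL22 read with sorafenib, against 0.140, 0.161 and 0.178 with DMSO. The means were 0.505 ± 0.009 in sorafenib libraries and 0.160 ± 0.019 in DMSO libraries, a 3.16-fold higher ratio (SD, n = 3 each; exact permutation test, two-sided p = 0.1). For RPL39L, a paralog known from testis and cancer cells, the ratio to RPL39 was 0.046 ± 0.001 in sorafenib libraries and 0.022 ± 0.001 in DMSO libraries (SD, n = 3 each; exact permutation test, two-sided p = 0.1). RPL39L alone had a log2 change of 0.25 (SE 0.10; limma adjusted p = 0.0443), which did not pass without sorafenib replicate 1 (0.18; adjusted p = 0.188), sorafenib replicate 2 (0.25; adjusted p = 0.0886), DMSO replicate 1 (0.17; adjusted p = 0.2) or DMSO replicate 2 (0.25; adjusted p = 0.0781), nor with no filter on low values (adjusted p = 0.067).

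FAU, which encodes the 40S protein RPS30 fused to a ubiquitin-like protein, had 6906, 6185 and 5781 normalized read counts in sorafenib libraries, against 9100, 9020 and 10853 in DMSO libraries. It fell by 0.62 on the log2 scale (SE 0.078). RPL36AL fell by 0.57 (SE 0.061). RPL7L1 fell by 0.26 (SE 0.055), by 0.032 with scaling by library totals, and RPL26L1 by 0.29 (SE 0.064), by 0.067 with scaling by library totals. RPS27L, a paralog of RPS27, had a log2 change of -0.22 (SE 0.076; limma adjusted p = 0.019), and 0.0090 with scaling by library totals. It did not pass by limma without sorafenib replicate 1, sorafenib replicate 2 or DMSO replicate 3 (adjusted p = 0.0517, 0.0741 and 0.0506). The paralogs RPL3L and RPL10L were under the minimum level and were not tested.

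**Figure D4:**
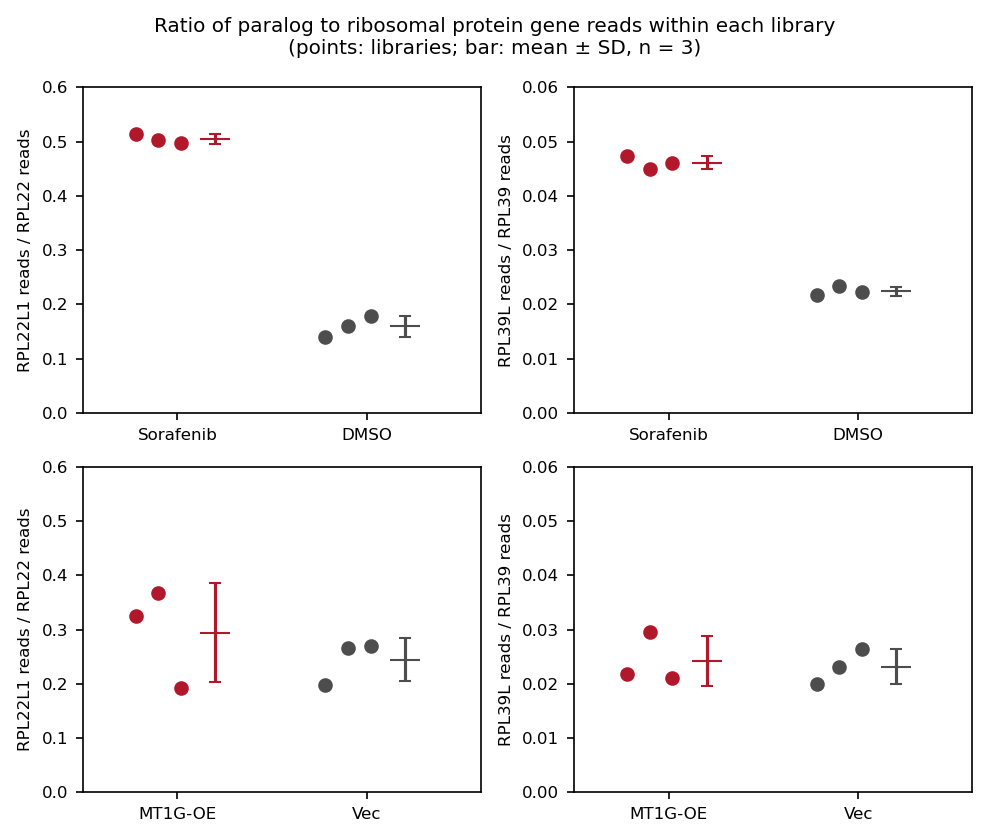
Reads of RPL22L1 for each RPL22 read (left column) and of RPL39L for each RPL39 read (right column) in each library (points) with the mean ± SD of 3 libraries (bars). Under sorafenib (top) the RPL22L1 ratio is 0.505 against 0.160 with DMSO and the groups are apart, whereas the MT1G-OE and Vec libraries (bottom) overlap in both ratios.

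The promoters of this pair are shown because the genes moved apart. The 250 bases before the RPL22 start (chr1:6199596-6199845, minus strand, GRCh38.p14) held none of the 5 letter motifs searched, and those before the RPL22L1 start (chr3:170870196-170870445, minus strand) held the TATA box, in capitals.
RPL22: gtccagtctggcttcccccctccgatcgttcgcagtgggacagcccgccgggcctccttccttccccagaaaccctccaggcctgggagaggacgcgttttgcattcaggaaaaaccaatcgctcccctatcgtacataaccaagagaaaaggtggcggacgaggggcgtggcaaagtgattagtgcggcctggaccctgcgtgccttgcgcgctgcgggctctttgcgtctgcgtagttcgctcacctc
RPL22L1: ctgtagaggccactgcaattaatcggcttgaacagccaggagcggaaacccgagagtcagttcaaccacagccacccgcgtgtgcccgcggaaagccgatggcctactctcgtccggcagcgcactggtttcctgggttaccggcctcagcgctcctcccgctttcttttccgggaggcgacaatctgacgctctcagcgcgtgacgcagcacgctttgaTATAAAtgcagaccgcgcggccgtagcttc

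Other genes with TOP transcripts were also mostly lower with sorafenib. Of 19 tested, 17 were lower, beside 35.8% lower and 34.4% higher over all 14915 tested genes, with a median log2 change of -0.44. Most of the list is highly counted. Among genes of the tenth decile other than the members, 66.0% were lower, with a median of -0.30. The part of expression level in the list's changes was not tested. EIF4B, a cofactor of the eIF4A helicase, fell by 1.09 on the log2 scale (SE 0.055), EEF1A1, which brings aminoacyl-tRNA to the ribosome, by 0.59 (SE 0.055), and EIF3L, a subunit of eIF3, by 0.62 (SE 0.060). The list includes FAU.

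Lists of the wider machinery held genes lower and genes higher with sorafenib, and their counts are read against the same 35.8% lower and 34.4% higher over all tested genes. A share near these is not a result about a list. Of 28 translation initiation factors, 11 were lower and 8 higher, with a median log2 change of -0.11. EIF4E, the cap-binding protein, fell by 1.04 (SE 0.082) and EIF1, which guards start codon choice, rose by 1.03 (SE 0.058). Of 33 ribosome assembly factors, 16 were lower and 13 higher, with a median of -0.10. The nucleolar factors NOP16 and GNL3 fell by 1.12 (SE 0.074) and 0.90 (SE 0.059), and the kinase RIOK2, which acts on 40S precursors, rose by 0.84 (SE 0.083). Of 23 genes of RNA polymerases I and III and their factors, 11 were lower and 7 higher. POLR1B of polymerase I fell by 1.06 (SE 0.058) and POLR3C of polymerase III rose by 1.21 (SE 0.060). Of 76 mitochondrial ribosomal protein genes, 38 were lower and 10 higher, with a median of -0.17. The medians of these 4 lists are smaller than the shift of 0.22 that scaling by library totals gave to all genes.

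Of 21 genes of the mTORC1 pathway and TOP translation, regulators of ribosomal protein mRNAs, 8 were lower and 8 higher, 38.1% each, which is near the shares over all tested genes. LARP1, which binds the TOP motif, fell by 1.14 (SE 0.054) and RPTOR, the scaffold of mTORC1, by 1.05 (SE 0.072) on the log2 scale. DDIT4, a stress-induced inhibitor of mTORC1, fell by 1.68 (SE 0.057), and SESN2, another such inhibitor, rose by 2.77 (SE 0.072). Of 12 transcription factors known at ribosomal protein promoters, 6 were lower and 6 higher. ZBTB7A fell by 1.75 (SE 0.072) and SP1 by 1.10 (SE 0.069), whereas MYC, a transcription factor that drives ribosome production, rose by 0.61 (SE 0.053).

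With MT1G overexpression fewer ribosomal protein genes passed and the changes were smaller. Of 75 members tested with limma, 18 were lower at an adjusted p under 0.05 and 57 did not pass, beside 11.3% lower and 11.5% higher over all 13914 tested genes. The tenth decile of mean normalized read count held 69 members. Of its 1323 other genes 28.1% were lower, beside 24% of the members tested, so the members' share was not above that of genes of similar level. No member was higher by limma, also at an unadjusted p under 0.05, and DESeq2 and edgeR likewise called 0 higher. The median log2 change was -0.16, beside a median of all genes at 0 to 2 decimals. Passing members were 4 of 29 tested for the 40S and 14 of 46 for the 60S. For 28 of 75 members all MT1G-OE libraries lay below all Vec libraries, a gap that 20.5% of all tested genes showed. The authors' deposited table had 24 members lower at an adjusted p under 0.05.

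The count depended on single libraries. It was 30 without MT1G-OE replicate 3, 8 without MT1G-OE replicate 2, and 5 without Vec replicate 2 or without Vec replicate 3. The median stayed between -0.20 and -0.14 in these fits. With scaling by library totals 11 members were lower, and all tested genes split into 1988 higher and 943 lower. The 5 members lower in all 15 refits (other scalings, no filter, other pseudocounts, DESeq2, edgeR, the replicate block and each library left out) were RPL23A, RPS2, RPL9, RPLP0 and RPL36.

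RPL23A, at the mouth of the exit tunnel, had the largest fall, with 4948, 4891 and 5838 normalized read counts in MT1G-OE libraries, against 7579, 7716 and 6661 in Vec libraries. The groups did not overlap, and the log2 change was -0.49 (SE 0.086; limma adjusted p = 0.000416). RPS2 had 79454, 70540 and 80948 normalized read counts in MT1G-OE libraries, against 102612, 102614 and 110370 in Vec libraries, a log2 change of -0.45 (SE 0.084; limma adjusted p = 0.000668). RPL9, a 60S protein of the factor-binding side, fell by 0.36 (SE 0.081; limma adjusted p = 0.00307).

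RPLP0 had 61563, 53597 and 55369 normalized read counts in MT1G-OE libraries, against 68635, 72779 and 75448 in Vec libraries, and fell by 0.35 on the log2 scale (SE 0.084; limma adjusted p = 0.0053). RPL36 had 7305, 6552 and 8307 normalized read counts in MT1G-OE libraries, against 9603, 9031 and 9391 in Vec libraries, and fell by 0.34 (SE 0.086; limma adjusted p = 0.00678). RPS15, a 40S head protein, fell by 0.32 (SE 0.087; limma adjusted p = 0.0126), and did not pass without Vec replicate 2 or Vec replicate 3 (limma adjusted p = 0.0671 and 0.0848). These members were lower in each MT1G-OE library than in any Vec library.

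By role, the stalk had RPLP2 lower (-0.25; SE 0.078; limma adjusted p = 0.0263), while RPLP1 had a log2 change of -0.24 (SE 0.094; limma adjusted p = 0.0761). RPLP1 passed without MT1G-OE replicate 3 (-0.36; limma adjusted p = 0.00122) and with no filter on low values (adjusted p = 0.0109). RPSA was lower at -0.28 (SE 0.088; limma adjusted p = 0.0257). Without MT1G-OE replicate 2, Vec replicate 2 or Vec replicate 3, RPLP2 did not pass by limma (adjusted p = 0.0554, 0.119 and 0.147), and neither did RPSA (adjusted p = 0.0898, 0.129 and 0.134). RPL5 had -0.079 (SE 0.080), RPL11 had 0.034 (SE 0.075), RPS6 had -0.19 (SE 0.090), RPS3 had -0.20 (SE 0.10), RPS27A had -0.11 (SE 0.081), RPL41 had -0.13 (SE 0.081) and RPL13A had -0.15 (SE 0.082) as log2 changes, and these did not pass. RPS3 passed without MT1G-OE replicate 3 (-0.33; limma adjusted p = 0.00365) and with no filter on low values (adjusted p = 0.0308). RPS4X was at -0.029 (SE 0.080), and at 0.038 with scaling by library totals.

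MT1G-OE replicate 3 set the values of several members. RPS29 had 4843, 4250 and 7123 normalized read counts in MT1G-OE libraries, against 5172, 5060 and 5528 in Vec libraries. The groups overlapped at a log2 change of 0.0064 (SE 0.20), and the value without that library was -0.21 (limma adjusted p = 0.0554). RPL26 had 193, 194 and 953 normalized read counts in MT1G-OE libraries, against 562, 361 and 301 in Vec libraries, and RPS9 had 11.9, 6.98 and 128 against 10.96, 5.37 and 9.33. RPL36A had 48.7, 50.01 and 71.0 normalized read counts in MT1G-OE libraries, against 58.1, 43.9 and 65.3 in Vec libraries.

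With MT1G-OE the 8 tested paralogs and fusion genes had adjusted p-values by limma of at least 0.109, the lowest being that of FAU at a log2 change of -0.19 (SE 0.083). Without MT1G-OE replicate 3, FAU passed at -0.26 (limma adjusted p = 0.018) and RPL36AL at -0.27 (limma adjusted p = 0.0244). RPL22L1 had 462, 506 and 426 normalized read counts in MT1G-OE libraries, against 371, 465 and 418 in Vec libraries. Its ratio to RPL22 was 0.294 ± 0.091 in MT1G-OE libraries and 0.245 ± 0.040 in Vec libraries (SD, n = 3 each; exact permutation test, two-sided p = 0.5). Whether the ratio changed differently with sorafenib and with MT1G-OE was not tested.

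Of 19 other TOP genes tested with MT1G-OE, 4 were lower, beside 11.3% lower and 11.5% higher over all 13914 tested genes, with a median log2 change of -0.16. Among genes of the tenth decile other than the members, 28.1% were lower. EIF4B fell by 0.40 (SE 0.076), EEF2, the translocation factor, by 0.34 (SE 0.086) and EIF3F by 0.30 (SE 0.083) on the log2 scale. Without Vec replicate 3 EEF2 did not pass (limma adjusted p = 0.0635), and EIF3F did not pass without Vec replicate 2 or Vec replicate 3 (limma adjusted p = 0.0861 and 0.0834). Lower calls were 4 of 28 initiation factors, 5 of 33 assembly factors, 4 of 23 polymerase I and III genes, 6 of 20 mTORC1 genes and 6 of 75 mitochondrial ribosomal protein genes. Higher calls were 5 assembly factors, 2 polymerase genes and 2 mTORC1 genes. Nothing particular to a list is read from these counts beside the 11.3% and 11.5% over all genes. FBL, the rRNA methyltransferase fibrillarin, fell by 0.44 (SE 0.078), and RIOK2 rose by 0.57 (SE 0.11). MLST8, a subunit of mTORC1, fell by 0.53 (SE 0.083). Among the 12 transcription factors HCFC1 fell by 0.48 (SE 0.085) and SP3 rose by 0.44 (SE 0.099).

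The experiments used separate controls, and the members can be set side by side. All 18 members lower with MT1G-OE were also lower with sorafenib, which is 18 of the 72 lower there. The 18 are among the 70 members with a mean of at least 1000. All 70 were lower with sorafenib, so the overlap was fixed in advance and says nothing about agreement. For 64 of the 70 members with a mean of at least 1000 in both tables the log2 change was more negative with sorafenib. Over the 70 members the log2 changes had a Pearson r of -0.35 and a Spearman rho of -0.35, as a description over genes that share their libraries. RPS29, at -0.95 with sorafenib, was at 0.0064 with MT1G-OE, and RPL38 at -0.74 and -0.041. RPL36, at -0.19 with sorafenib, was at -0.34 with MT1G-OE, and RPS2 at -0.32 and -0.45. Whether the changes differed between the experiments was not tested.

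**Figure D5:**
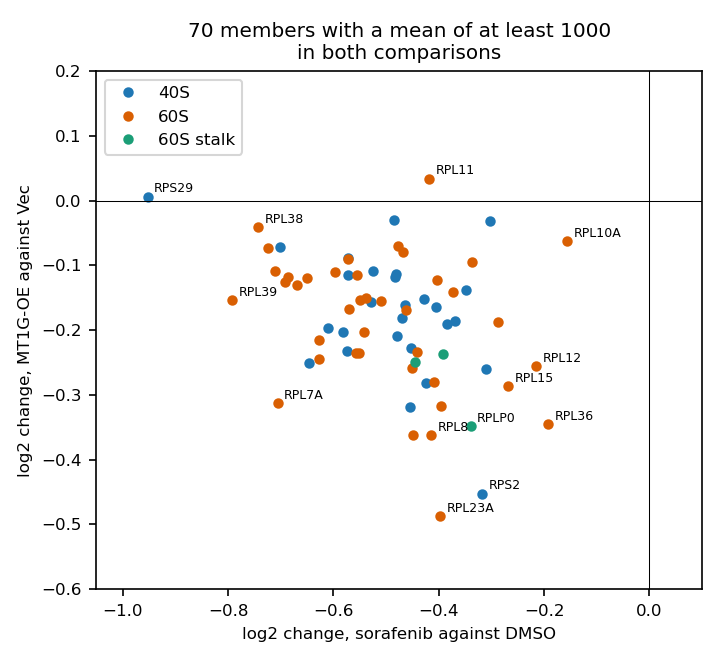
log2 change of each of 70 ribosomal protein genes (points, coloured by subunit) with sorafenib against DMSO (horizontal axis) and with MT1G-OE against Vec (vertical axis). All points lie left of 0, and RPS29 and RPL38 at the far left are close to 0 on the vertical axis, whereas RPL23A and RPS2 are lowest there.

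Members with and without the run of C and T at an annotated start had similar median changes, and the difference was not tested. The split rests on the annotated base alone. Members counted without the run, such as RPL10A, can have one a few bases away, so the split does not sort members by the TOP motif. Among well-counted members, 41 with the run had a median log2 change of -0.48 with sorafenib and -0.16 with MT1G-OE, and 15 without it had -0.45 and -0.22. RPS29, without the run at its annotated start, and RPL36, with it there, were picked for the size of their changes. Nothing about the motif is read from that pair.

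The starts of ribosomal protein genes lay in open chromatin in all ATAC-seq libraries. All 62 members with an annotated start had a peak over it in both sorafenib and both DMSO libraries, against 83.5% of 10314 other tested genes. The other genes were not matched to the members by RNA level, so the gap is not read as particular to ribosomal protein genes. Other genes had a peak over the start in 87.8% and 86.8% of cases in the sorafenib libraries, and in 86.0% and 89.3% in the DMSO libraries. The fold enrichment of a peak over local background, as given by the authors' peak caller, had a median over members of 12.04 and 11.59 in the sorafenib lists and 11.5 and 13.4 in the DMSO lists. The medians over other genes were 12.01 and 11.7 in the sorafenib lists and 11.3 and 13.3 in the DMSO lists, so members and other open starts differed little within each list. With 2 libraries a group no test was made. RPS18, at or near 0 in the RNA tables, had a peak over its start in all 4 libraries, with fold enrichments of 11.3 and 11.6 in the sorafenib lists and 14.1 and 16 in the DMSO lists. Its RNA values are uncertain, as the authors' counting could have dropped its reads, so they do not show a silent gene.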

How the data were processed

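RNA from 12 libraries and open chromatin from 4 were used. Per the submitters' processing notes, which give neither role nor order, hg38 was the build and the tools were MACS2 2.2.7.1, Picard, SAMtools, Bowtie2 2.4.1, DESeq2, featureCounts 1.6.1, HISAT2 and cutadapt. The RNA values deposited by the authors are a signal, normalized read counts per gene. Dividing each column by the worth of 1 read gave whole reads for 100% of values within a tolerance of 0.001. The authors made the log2 fold changes, standard errors, test scores and p-values of the comparison tables. They also made the deposited peak lists, which hold for each peak a score, a fold ratio over background, -log10 p and -log10 q.

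Each comparison was fitted on its own 6 libraries with limma 3.58.1 in R 4.3.3 (trend and robust variance, two-sided) on log2(normalized read count + 1), on genes whose mean reached 10, with Benjamini-Hochberg adjustment over all genes tested and a threshold of 0.05. A log2 change is therefore on that scale. Shares and ratios used recovered reads and exact permutation tests. The fit was tested on simulated data. Promoters and peaks were read with Python 3.11.15, pandas 2.3.3 and matplotlib 3.10.9. Groups came from sample titles, and column 1, 2 or 3 of an arm was taken as the replicate of that number, which is an assumption. The labels do not say whether samples came from separate cultures, so p-values measure the spread between these samples, which may be technical. Depth was 16549330 to 26781600 reads in genes a library.

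Members and lists were chosen with earlier results of these data known. Named members were the 6 largest changes each way past the threshold, the 3 with the highest mean, the 3 changes closest to 0, those under the minimum or with a 0, and members named for their role; paralogs were named too, and up to 3 genes a list with the gene most against it. Members named outside this rule (RPS23, and RPS9, RPL26 and RPL13A where the rule did not take them) were chosen after their values were seen. Alternatives were TMM factors, scaling by library totals, size factors without the members, no filter, pseudocounts of 0.5 and 5, DESeq2 1.42.0 and edgeR 4.0.16 on recovered reads, a replicate block, each library left out, a minimum change of 0.5, and for peaks a distance of 100 bases, a -log10 q of at least 5 and equal peak numbers. Settings added after seeing the data were members with a mean of at least 1000 and leaving out each ATAC-seq library. Some members, list genes and markers are not reported here by name.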

Additional observations from a re-analysis of the deposited data

How the results depend on the processing

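Under sorafenib the lower calls numbered 61 to 72 of the members in every alternative tried except the minimum absolute log2 change of 0.5, which left 32; the higher call, RPS10, was kept in all but the setting limited to members with a mean of at least 1000, which left 0. Of 73 called members, 62 kept their call in all 15 refits. With MT1G-OE the lower calls were 11 with scaling by library totals, 0 with a minimum absolute log2 change of 0.5, and 5 to 30 when each library was left out in turn. The replicate block gave 71 lower with sorafenib and 14 lower and 1 higher (RPS9) with MT1G-OE; same-numbered libraries deviated together with correlations of -0.06 to 0.03 for sorafenib and -0.14 to 0.04 for MT1G-OE, so the numbers were not taken as pairs. Among called members and genes named by the rule, scaling by library totals turned the log2 changes of RPL10A (0.069), RPL36 (0.032), RPS27L (0.0090) and RPL12 (0.0099) under sorafenib and of RPS4X (0.038) with MT1G-OE to the other sign. With MT1G-OE this scaling moved the median of all genes by 0.066, which is larger than the change of RPL38 (-0.041). Over the libraries left out, MT1G-OE changes near 0 took both signs for RPS29 (-0.21 to 0.16), RPL36A (-0.15 to 0.14), RPS4X (-0.082 to 0.0032), RPL7L1 (-0.023 to 0.075), RPL36AL (-0.27 to 0.0023) and RPL39L (-0.19 to 0.0012). Reversals were followed only for called members and for genes named by the rule, and their cause was not tested. The difference in share of reads was -1.43 to -0.96 percentage points for sorafenib and -0.90 to -0.66 for MT1G-OE over the libraries left out, and -1.41 and -0.77 over reads outside mitochondrial genes. Peaks over all 62 starts were found in every ATAC-seq alternative. Groups of 3 and of 2 limit all tests, and members with few counted reads carry the widest errors.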

Other observations

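Processed pseudogenes of ribosomal proteins, intronless copies of their mRNAs, were lower with sorafenib more often than higher. Of 1225 listed, 91 were tested under sorafenib with limma, and 52 were lower and 7 higher at an adjusted p under 0.05, beside 35.8% lower and 34.4% higher over all tested genes, with a median log2 change of -0.51. With MT1G-OE 11 of 89 were lower, beside 11.3% over all 13914 tested genes, with a median of -0.26. Reads assigned to pseudogenes were 4.84% ± 0.18 of the reads of the members in sorafenib libraries and 4.71% ± 0.04 in DMSO libraries (SD, n = 3 each; exact permutation test, two-sided p = 0.4). They were 4.49% ± 0.04 in MT1G-OE libraries and 4.63% ± 0.05 in Vec libraries (SD, n = 3 each; exact permutation test, two-sided p = 0.1). Near-identical copies share reads, so the pseudogene values are uncertain. RPS2P5, a copy of RPS2 chosen after its values were seen, had 13804 ± 2093 normalized read counts in sorafenib libraries and 19853 ± 2228 in DMSO libraries (SD, n = 3 each; limma adjusted p = 0.0019).

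Introns of ribosomal protein genes often hold small nucleolar RNA genes, which guide modification of ribosomal RNA. By position in the RefSeq gene table, 29 members held 60 of them. Among well-counted members, 28 hosts had a median log2 change of -0.46 with sorafenib and -0.20 with MT1G-OE, and 42 others had -0.48 and -0.15.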
